A study of Mus musculus with 6 samples.

Results

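Translation initiation factor genes were examined in the hippocampus of young and aged mice. They were taken as every gene whose symbol begins with Eif followed by a digit from 1 to 6, a rule that uses no expression value. It found 53 of the 16703 genes of the table, 52 of them protein-coding and 1, Eif4a-ps4, a processed pseudogene. Poly(A)-selected RNA was sequenced from the hippocampi of mice aged 3 months (the young group) or 20 months (the aged group), 3 mice in each, with 1 library per mouse. All 6 were untreated male C57BL/6 mice, an inbred laboratory strain, so age was the only difference between the groups in the labels. The methods state that the 3 replicates of each age were selected after a qPCR assay. The study names Eif6 among its examples of genes with altered m6A, a methylated base in RNA; no methylation was analysed here.

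Initiation brings the ribosome to the start codon of an mRNA. The small ribosomal subunit, loaded with eIF1, eIF1A, eIF3, eIF5 and the eIF2 complex that carries initiator tRNA, is recruited to the mRNA cap by eIF4F and scans to the start codon, where eIF5B joins the large subunit. The step is controlled mainly through phosphorylation of eIF2, which blocks its exchange factor eIF2B in the integrated stress response, and through mTORC1, a kinase complex that releases the cap-binding protein eIF4E from its repressors. In neurons both controls are known for their part in synaptic plasticity and memory.

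Of the 53 genes, 2 differed with age at a false discovery rate (FDR) under 0.05. Eif4g1, the scaffold of the cap-binding complex, fell, and Eif3f, a subunit of eIF3, rose. That is 3.77% of these genes, beside 1.98% of all genes called in either direction, 1.2% called higher and 0.784% called lower. No initiation factor gene changed by 1.5-fold, while 0.706% of all genes passed the FDR at that fold change. Levels are CPM, counts scaled to the library total, and fold changes are aged over young on the log2 CPM scale. They were tested with limma, with Benjamini-Hochberg adjustment over the whole table. The log2 fold changes ran from -0.21 (Eif2d) to 0.32 (Eif4ebp1), with 30 above and 23 below 0. Their median was 0.012, beside 0.005 over all genes.

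**Figure D1:**
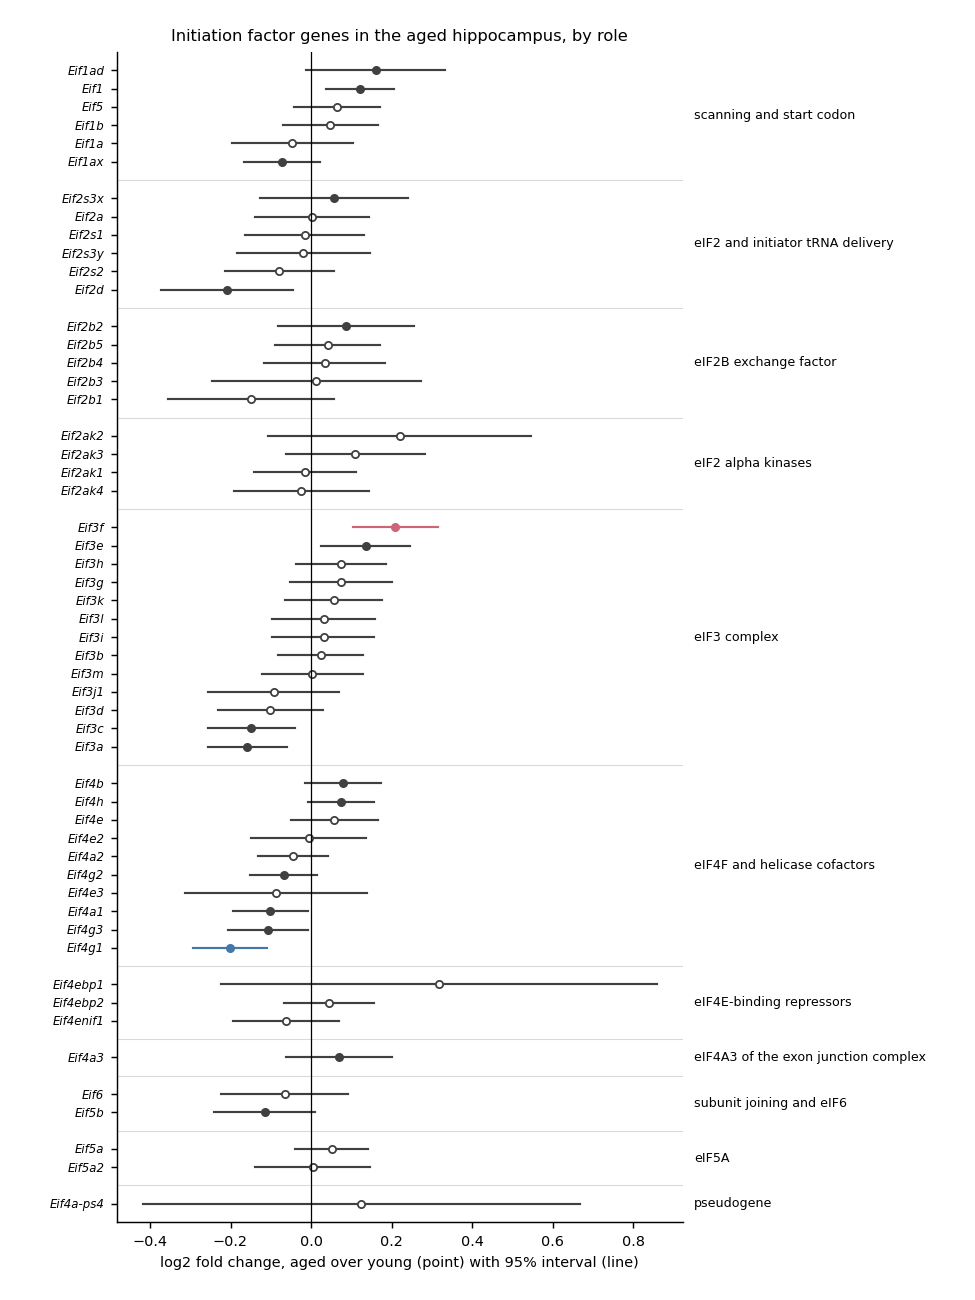
Log2 fold change of each of the 53 genes in aged over young mice (points) with its 95% confidence interval from limma (lines), grouped by role. Filled points are genes whose 3 aged mice all lie on 1 side of the 3 young mice; Eif3f is drawn in red and Eif4g1 in blue because they passed the FDR threshold, and the other intervals mostly span 0.

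The levels were read on adjusted counts and not on raw reads, because the deposited values had been freed of 1 factor of unwanted variation. The SDs given here are those of the adjusted values, and the test holds a term for the removed factor. In bulk tissue, fewer cells of a type and less RNA per cell cannot be told apart. The totals of adjusted counts were 15238190 to 17548247 per library, and the sequencing depth is not known from them. All 42 marker genes of hippocampal neurons, glia, endothelium and choroid plexus were measured, at 1.94 CPM or more in every library. The summed CPM of the 8 markers of excitatory hippocampal neurons was 6285 to 6675 in young and 6132 to 6268 in aged mice, with log2 fold changes below 0 for all 8 and no call. The 6 markers of inhibitory neurons were all above 0 (median log2 fold change 0.173, 3 without overlap between the groups), and Sst, a neuropeptide of interneurons, was called higher. Gfap, of astrocytes, and Mobp, of myelin, were also called higher, 1 of the 6 markers in either list. All 6 microglial markers were higher in every aged mouse, their sum ranging from 267 to 275 CPM in young and from 346 to 353 CPM in aged mice. The part of these cell types in the results on initiation factor genes was not tested, except for the choroid plexus covariate. That covariate was correlated with age at -0.8. The choroid plexus, tissue of the ventricle next to the hippocampus, was present unequally, with the 5 markers at 2662 to 2730 CPM in young mice and 2460, 313 and 556 CPM in aged replicates 1, 2 and 3.

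Many mRNAs of the translation apparatus begin with an unbroken run of C and T at the cap, known as the terminal oligopyrimidine tract, through which mTORC1 controls their translation in mammals. The annotated start of transcription was found for 43 of the 53 genes in the RefSeq promoter table (build GRCm38.p6). A run of at least 8 bases of C and T, touching the bases within 5 of an annotated start, was found in 8 of these genes (18.6%), which were Eif2ak4, Eif2b5, Eif2s3x, Eif2s3y, Eif3f, Eif3l, Eif4e and Eif4enif1. Eif2ak4, Eif4e and Eif4enif1 have the run only at some of their annotated starts. Such a run was found in 11% of the 27025 genes of that promoter table and in 12.2% of those with a row among the expression values. Of 59 ribosomal protein genes, 24 had it (40.7%). The 30 bases around the start, 15 before and 15 from it on, are shown in the direction of transcription for Eif3f, the gene that rose, for the X- and Y-linked copies of 1 eIF2 subunit and for Eif2b5, with the run in capitals. Eif4g1, Eif3a and Eif2d, lower in all aged mice, and Eif1 and Eif4h, higher in all aged mice, are shown because they lack such a run.
Eif3f: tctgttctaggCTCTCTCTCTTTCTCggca
Eif2s3x: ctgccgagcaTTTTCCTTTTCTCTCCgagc
Eif2s3y: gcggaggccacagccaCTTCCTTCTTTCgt
Eif2b5: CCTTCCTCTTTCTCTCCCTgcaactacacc
Eif4g1: cgccagcgcagctccgccctctgcgccggt
Eif3a: cggggctcgggcggcggcgctgccgccgcg
Eif2d: cgtcagttccgggccagcatcagggctagg
Eif1: gcgctggcgtcacaggggcggctatataag
Eif4h: gtgcgacttgcgatcaggcagcgcggcgga
These windows lie at chr7:108934400-108934429 (plus strand, Eif3f), chrX:94212637-94212666 (minus, Eif2s3x), chrY:1010580-1010609 (plus, Eif2s3y), chr16:20498802-20498831 (plus, Eif2b5), chr16:20672712-20672741 (plus, Eif4g1), chr19:60790679-60790708 (minus, Eif3a), chr1:131153192-131153221 (plus, Eif2d), chr11:100319934-100319963 (plus, Eif1) and chr5:134639395-134639424 (minus, Eif4h). The run was 15 bases long at Eif3f, 16 at Eif2s3x, 12 at Eif2s3y and 21 at Eif2b5, where it began before the window shown. At Eif2b5 most of the run lay before the annotated start. The rule used here does not require the run to lie within the mRNA, so a run is not proof of such a tract. The longest run at the start of Eif4g1 had 6 bases. Of the 8 genes with such a run, Eif3f alone was called with age. Among genes with an annotated start, the run was absent from 6 of the 8 that were higher in every aged mouse, Eif3f and Eif2s3x being the exceptions. It was absent from all 8 that were lower and from 21 of the 27 whose groups overlapped. Most genes lack such a run, and its relation to age was not tested. In the 300 bases around the start, the motif CACGTG, which reads the same on both strands, was found in 10 of 43 initiation factor genes (23.3%). Of the 8 genes with an annotated start that were higher in every aged mouse, Eif3f and Eif4h had it. Of the 8 that were lower, Eif3a, Eif4a1 and Eif4g1 had it. Of the 27 with overlap between the ages, Eif1b, Eif3k, Eif4e, Eif5a and Eif5a2 had it. Any relation of the motif to age was not tested. CACGTG was found in 8.09% of all genes of the promoter table and in 11.2% of those with a row among the expression values. The motif CCGGAAGT, searched on both strands and neither holding nor held by the other, was found in 8 of 43 (18.6%), beside 4.31% and 7.99% in the same sets. The third motif searched, ATGGCGGC, was found in 0 of 43, beside 2.6% and 4.91%.

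The cap-binding group holds eIF4E, which binds the cap, the eIF4G scaffolds, the eIF4A helicases and their cofactors. Of its 10 measured genes 1 fell and none rose (10% called, beside 1.98% of all genes). In every aged mouse 4 were lower (40%) and 2 higher (20%), beside 12.7% and 14.5% of all genes. Eif4g1 (ENSMUSG00000045983.17), which bridges eIF4E, eIF4A and the poly(A)-binding protein, was at 319, 341 and 321 CPM in the young mice and at 281, 284 and 288 CPM in the aged mice. The highest aged mouse lay below the lowest young mouse by more than the range of the aged mice. The mean went from 327 ± 12.3 to 284 ± 3.71 CPM (SD, n = 3 mice each), and the log2 fold change was -0.20 (SE 0.043, 95% interval -0.29 to -0.11, adjusted p = 0.026 from limma). The call was lost when any single mouse was left out except young replicate 3 (adjusted p 0.039 to 0.13, log2 fold change -0.28 to -0.17). With the choroid plexus markers as a covariate the log2 fold change was -0.23 (SE 0.074, adjusted p = 0.29 from limma). That covariate was itself correlated with age at -0.8, so the 2 cannot be well separated.

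The related scaffolds were also lower in every aged mouse but did not pass the test. Eif4g3 was at 244, 265 and 250 CPM in young and at 225, 239 and 240 CPM in aged mice, and the groups were separated by a gap smaller than the spread of either. Its log2 fold change was -0.11 (SE 0.047, adjusted p = 0.3 from limma). Eif4g2, a scaffold that lacks the eIF4E-binding part, was at 611, 578 and 605 CPM in young and at 575, 572 and 563 CPM in aged mice, a log2 fold change of -0.07 (adjusted p = 0.45 from limma). The highest aged and lowest young mouse of Eif4g2 were nearly level.

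The helicase genes and their cofactors went different ways. Eif4a1, the gene of the helicase eIF4A1, was at 243, 242 and 246 CPM in young and at 237, 220 and 224 CPM in aged mice, with a log2 fold change of -0.10 (adjusted p = 0.29 from limma). All of its aged values lay below its young ones. Its paralog Eif4a2 had a log2 fold change of -0.05 with overlapping groups, and the ratio of Eif4a2 to Eif4a1 CPM was 2.43 to 2.66 in young and 2.61 to 2.7 in aged mice. Small nucleolar RNA genes overlap annotated exons of both helicase genes on the same strand. The cofactors that stimulate eIF4A were higher in every aged mouse without passing the test. Eif4h was at 394, 383 and 385 CPM in young and at 406, 410 and 407 CPM in aged mice (log2 fold change 0.07, adjusted p = 0.39 from limma). Eif4b was at 215, 226 and 210 CPM in young and at 227, 229 and 233 CPM in aged mice (log2 fold change 0.08, adjusted p = 0.43 from limma). For Eif4b the lowest aged mouse and the highest young mouse were almost equal. The cap-binding genes Eif4e, Eif4e2 and Eif4e3 had overlapping groups and log2 fold changes of 0.06, -0.01 and -0.09. In Eif4e3, 14.8% of exonic bases are shared with Gm20696 on the same strand.

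eIF3 is the largest initiation factor, a complex of many subunits that holds the small subunit and the mRNA together. Of its 13 measured genes 1 rose and none fell (7.69% called, beside 1.98% of all genes), with a median log2 fold change of 0.031. In every aged mouse 2 were higher and 2 lower (15.4% each), beside 14.5% and 12.7% of all genes. Eif3f (ENSMUSG00000031029.7) was at 116, 113 and 110 CPM in young and at 126, 134 and 132 CPM in aged mice. All aged mice lay above all young mice, with a gap wider than the range of the young mice. The mean went from 113 ± 2.96 to 131 ± 4.36 CPM (SD, n = 3 mice each), and the log2 fold change was 0.21 (SE 0.050, 95% interval 0.10 to 0.32, adjusted p = 0.043 from limma). This call did not survive the removal of any single mouse (adjusted p 0.067 to 0.47, log2 fold change 0.17 to 0.24), and with the choroid plexus covariate the log2 fold change was 0.14 (adjusted p = 0.67). Eif3e, another subunit, was at 77.6, 77.3 and 76 CPM in young and at 83, 85.4 and 85.1 CPM in aged mice. Both groups of Eif3e were tight and did not overlap, but the log2 fold change of 0.13 (SE 0.052) did not pass the test (adjusted p = 0.23 from limma).

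The core subunits Eif3a and Eif3c, on which the complex assembles, had lower values with age. Eif3a was at 183, 178 and 175 CPM in young and at 155, 164 and 160 CPM in aged mice, a log2 fold change of -0.16 (SE 0.046, adjusted p = 0.1 from limma). It passed the FDR threshold only in the fit with age as the only term, which gives the same fold change. Eif3c was at 206, 204 and 185 CPM in young and at 173, 182 and 181 CPM in aged mice, a log2 fold change of -0.15 (adjusted p = 0.17 from limma). Young replicate 3 of Eif3c was close to the aged mice. The ratio of Eif3f to Eif3a CPM, a pair chosen after their values were seen as the extremes of the complex, was 0.635, 0.637 and 0.632 in young and 0.811, 0.819 and 0.825 in aged mice. The CPM summed over the 13 subunits was 1215, 1198 and 1160 in young and 1164, 1202 and 1193 in aged mice, so the groups overlapped in the sum. The other 9 subunits overlapped between the groups, with log2 fold changes from -0.10 (Eif3d) to 0.075 (Eif3h and Eif3g). Eif3d shares 43.3% of its exonic bases with Gm17638 on the opposite strand, and Eif3j1 19% with Spg11. Whether strand was used in counting is not given in the sources used here, so reads of such pairs may not be told apart.

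**Figure D2:**
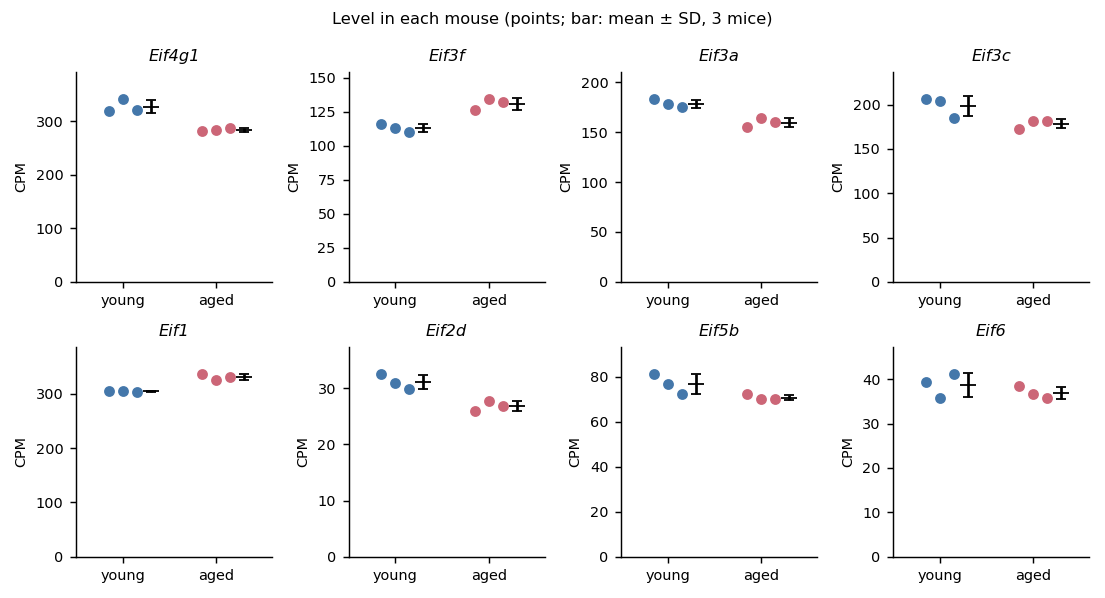
CPM of 8 initiation factor genes in each mouse (points, young left and aged right, axes from 0), with the mean ± SD of the 3 mice beside them. Eif4g1 lies at 319 to 341 CPM in young and 281 to 288 CPM in aged mice, Eif3f at 110 to 116 and 126 to 134 CPM, and Eif6 overlaps between the groups.

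The factors of scanning and start codon choice gave no call among 6 genes. Eif1, which keeps the small subunit scanning until the start codon is matched, was at 305, 305 and 303 CPM in young and at 336, 326 and 331 CPM in aged mice. The young mice were nearly level (SD 1.45 CPM), and every aged mouse was higher. The log2 fold change was 0.12 (SE 0.040, unadjusted p = 0.008 and adjusted p = 0.15 from limma), and Eif1 was called only in the fit with age as the only term. Its near-identical copy Eif1b had overlapping groups and a log2 fold change of 0.05. Eif1ad, which carries an eIF1A-like domain, was at 24.3, 24.6 and 22.5 CPM in young and at 27.2, 25.9 and 26.8 CPM in aged mice (log2 fold change 0.16, adjusted p = 0.38 from limma). All aged mice were higher, and 15.3% of the exonic bases of Eif1ad are shared with Banf1 on the opposite strand. Eif1ax, the X-linked eIF1A gene, was at 164, 165 and 166 CPM in young and at 160, 154 and 156 CPM in aged mice (log2 fold change -0.07, adjusted p = 0.49 from limma). Its aged mice all lay below the young mice. Eif1a, the other eIF1A gene, and Eif5, which triggers GTP hydrolysis by eIF2, overlapped between the groups, with log2 fold changes of -0.05 and 0.06.

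eIF2 carries the initiator tRNA, and none of its 6 subunit and companion genes passed the test. Eif2d, which can deliver tRNA without the eIF2 complex and acts in ribosome recycling, was at 32.5, 30.9 and 29.9 CPM in young and at 26, 27.8 and 26.9 CPM in aged mice. Every aged mouse was lower, and the log2 fold change of -0.21 (SE 0.077, 95% interval -0.37 to -0.04) had an unadjusted p of 0.016 and an adjusted p of 0.21 from limma. The alpha and beta subunit genes Eif2s1 and Eif2s2 and the alternative factor Eif2a overlapped between the groups, with log2 fold changes of -0.02, -0.08 and 0.00. The gamma subunit has an X-linked and a Y-linked gene in the mouse. Eif2s3x was at 20.6, 20.1 and 19.4 CPM in young and at 20.9, 20.8 and 20.9 CPM in aged mice (log2 fold change 0.06, adjusted p = 0.81 from limma). The aged mice of Eif2s3x were higher by less than the range of the young mice. Eif2s3y was the more abundant copy also per length, at 28 against 5.5 CPM per kb of transcript in young mice, and its log2 fold change was -0.02. The ratio of Eif2s3y to Eif2s3x CPM was 2.44 to 2.66 in young and 2.25 to 2.69 in aged mice. Reads that both copies share can be lost or split, since the methods kept uniquely mapped reads.

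eIF2B recharges eIF2 with GTP, and mutations in its 5 subunits cause vanishing white matter disease in people. None of the 5 genes was called, and their median log2 fold change was 0.034. Eif2b2, the beta subunit, had the highest log2 fold change of the 5, at 24.3, 26.3 and 26.4 CPM in young and at 27, 27.2 and 27.6 CPM in aged mice (log2 fold change 0.09, adjusted p = 0.66 from limma). Its groups did not overlap, and young replicate 1 was the lowest library. Eif2b1, the alpha subunit, had the lowest, at 23.6, 21.6 and 21.2 CPM in young and at 22.3, 18.5 and 19.2 CPM in aged mice (log2 fold change -0.15, adjusted p = 0.52 from limma). Aged replicate 1 of Eif2b1 lay among the young mice, and so the groups overlapped. Eif2b5, the catalytic epsilon subunit, had a log2 fold change of 0.04.

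The kinases that phosphorylate eIF2 alpha respond to different stresses, and none of the 4 was called. Eif2ak2 (PKR), which is activated by double-stranded RNA, was at 5.77, 5.49 and 6.95 CPM in young and at 7.23, 7.07 and 6.87 CPM in aged mice. Young replicate 3 lay among the aged mice, and the log2 fold change of 0.22 had a wide interval (-0.11 to 0.55, adjusted p = 0.56 from limma). Eif2ak4 (GCN2), which senses amino acid shortage, was at 28.7, 28.7 and 26 CPM in young and at 27.5, 27 and 27.5 CPM in aged mice (log2 fold change -0.02, adjusted p = 0.93 from limma). The aged mice lay between the young ones. Eif2ak3 (PERK), of the unfolded protein response, and Eif2ak1 (HRI), which senses heme, overlapped between the groups, with log2 fold changes of 0.11 and -0.02.

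The 3 measured genes of proteins that bind and restrain eIF4E gave no call. Eif4ebp1 was at 2.03, 1.96 and 1.43 CPM in young and at 1.95, 2.45 and 2.41 CPM in aged mice. It had the highest log2 fold change of the 53 genes (0.32) at 1 of the lowest levels, with an interval of -0.22 to 0.86 and overlapping groups (adjusted p = 0.62 from limma). Eif4ebp2, the main repressor of the family in brain, had a log2 fold change of 0.04 (interval -0.07 to 0.16), and its level per kb in young mice was 14.3 CPM beside 0.905 CPM for Eif4ebp1. Eif4enif1, which carries eIF4E into the nucleus and into P-bodies, was at 52, 51.4 and 49.4 CPM in young and at 47.5, 49.7 and 49.2 CPM in aged mice (log2 fold change -0.06, adjusted p = 0.7 from limma). Only aged replicate 2 of Eif4enif1 reached into the young range.

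The late-acting factors showed no call. Eif6, which keeps the large subunit from joining prematurely, was at 39.4, 35.7 and 41.1 CPM in young and at 38.4, 36.6 and 35.7 CPM in aged mice. The groups of Eif6 overlapped, and its log2 fold change was -0.07 (SE 0.074, 95% interval -0.22 to 0.09, adjusted p = 0.74 from limma). Over the 14 alternative fits the log2 fold change of Eif6 lay between -0.13 and 0.10. Eif5b, the GTPase of subunit joining, was at 81, 76.6 and 72.2 CPM in young and at 72.1, 69.8 and 70.1 CPM in aged mice (log2 fold change -0.12, SE 0.059, adjusted p = 0.38 from limma). The groups of Eif5b met at young replicate 3 and aged replicate 1, and 16.8% of its exonic bases are shared with Rev1 on the opposite strand. Eif5a, which helps ribosomes through difficult peptide bonds, was at 293, 276 and 280 CPM in young and at 301, 289 and 289 CPM in aged mice (log2 fold change 0.05, adjusted p = 0.64 from limma), with overlap. Its paralog Eif5a2 was at 57.9, 50.5 and 52.1 CPM in young and at 52.2, 55.6 and 52.8 CPM in aged mice, with a log2 fold change of 0.00. Eif4a3, a core protein of the exon junction complex despite its name, was at 45.9, 47.5 and 49 CPM in young and at 49.6, 49.8 and 50.1 CPM in aged mice (log2 fold change 0.07, adjusted p = 0.65 from limma). Its aged mice were higher by a small margin.
The pseudogene Eif4a-ps4 was at 1.44, 2.02 and 1.95 CPM in young and at 1.95, 1.88 and 2.05 CPM in aged mice, and reads of its parent gene cannot be separated from its own with certainty.

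In total 9 of the 53 genes (17%) were higher and 9 (17%) were lower in every aged mouse than in every young mouse, beside the 14.5% and 12.7% of all genes given above. Of these 18 genes, the 2 called ones apart, 8 in each direction did not pass the FDR threshold. At an unadjusted p under 0.05 from limma there were 9 of the 53 initiation factor genes, beside 2485 of all 16703 genes, a similar share.

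**Figure D3:**
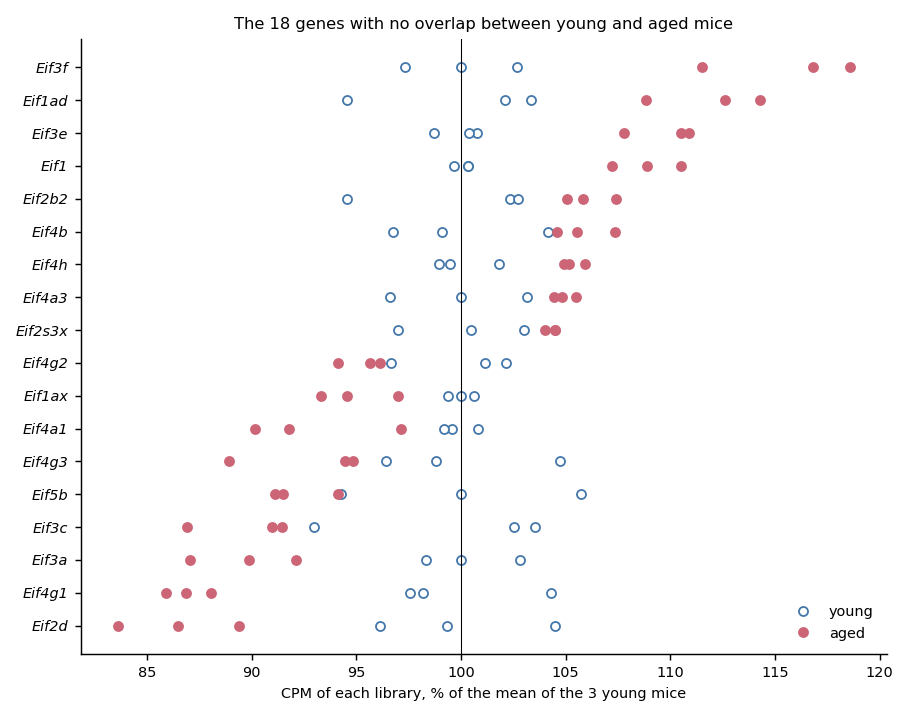
CPM of each library as a percentage of the mean of the 3 young mice, for the 18 genes whose groups did not overlap (open circles young, filled circles aged), ordered by log2 fold change. Aged mice of Eif3f lie farthest above and those of Eif2d farthest below 100%, while in Eif4b, Eif5b and Eif4g2 the groups almost touch.

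Under the model with age and the removed factor, the intervals bounded most changes. The median coefficient of variation of the adjusted values was 4.11% in young and 2.42% in aged mice for these genes, beside 7.42% and 4.91% over all genes. The removed factor weighed most on aged replicates 3 and 2 (weights 0.7477 and -0.5239). In the other libraries its weights lay from -0.2523 to 0.1718. The spread of the young and the aged mice can therefore not be compared. With the choroid plexus covariate the SEs were larger, for example 0.125 beside 0.074 for Eif6 and 0.133 beside 0.077 for Eif2d. The bounds given here are those without that covariate. For 49 of the 53 genes the 95% interval of the change lay within 25% in either direction. Among the 50 genes that averaged 10 CPM or more, the intervals reached at most from 22.7% lower to 25.9% higher. The other 3, Eif2ak2, Eif4ebp1 and Eif4a-ps4, were below that level. Per kb of transcript, Eif4a2 was the most abundant in young mice (283 CPM per kb), followed by Eif1 (230), Eif5a (197), Eif4h (164) and Eif4a1 (137), and the kinase Eif2ak2 (1.41) and the repressor Eif4ebp1 (0.905) were among the lowest. The CPM summed over the 53 genes was 6077, 6003 and 5897 in young and 5965, 5905 and 5927 in aged mice.

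The 9 genes that were lower in every aged mouse had longer transcripts than the 9 that were higher. The median length of the transcript chosen from GENCODE M21 was 5172 bases for the lower ones and 2367 bases for the higher ones, and 2208 bases for the 35 genes whose groups overlapped. Across the 53 genes, Spearman's rho between log2 fold change and length was -0.34 (-0.32 without Eif4g2, whose complete annotated transcripts differ much in length), and across the 16679 genes with a length it was -0.14. These points share the same 6 libraries and the same scaling, and genes are not independent replicates. The methods state that RNA integrity was checked on a Bioanalyzer and was high in all samples; no integrity value for each mouse was used here, and its part in the relation was not tested.

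**Figure D4:**
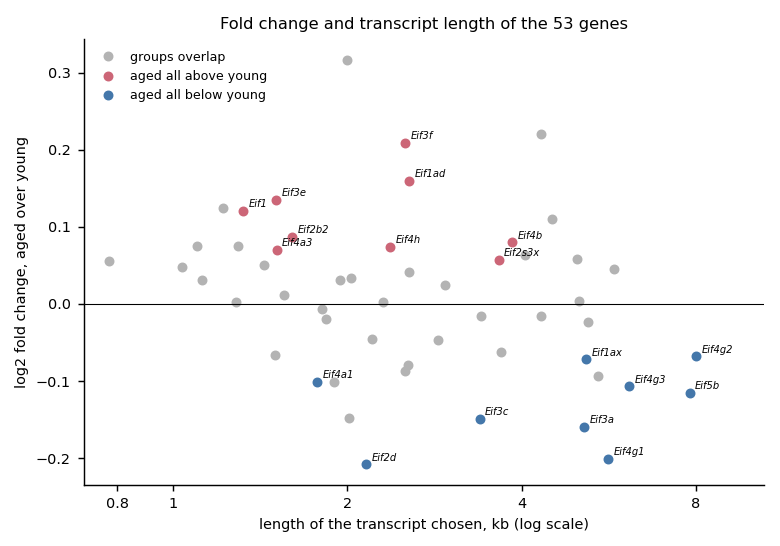
Log2 fold change in aged over young mice against the length of the chosen transcript (kb, log scale) for the 53 genes; red and blue points are genes higher or lower in every aged mouse, grey points overlap between the groups. Of the 9 blue genes, Eif4a1, Eif2d and Eif3c are shorter than 4 kb, and all 9 red genes are.

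Ribosomal protein genes, the largest other group of the translation apparatus, had a higher median. Their median log2 fold change was 0.134, beside 0.012 for the initiation factor genes and 0.005 for all genes. Of the 80 ribosomal protein genes 17 were called (21.2%, beside 1.98% of all genes), all higher. In every aged mouse 57 were higher (71.2%) and 1 lower (1.25%), beside 14.5% and 12.7% of all genes. Their median transcript length was 886 bases, and within these 80 genes Spearman's rho between log2 fold change and length was 0.08, where it was -0.34 among the initiation factor genes. The initiation factor genes were spread on both sides of 0, with quartiles of -0.068 and 0.070.

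**Figure D5:**
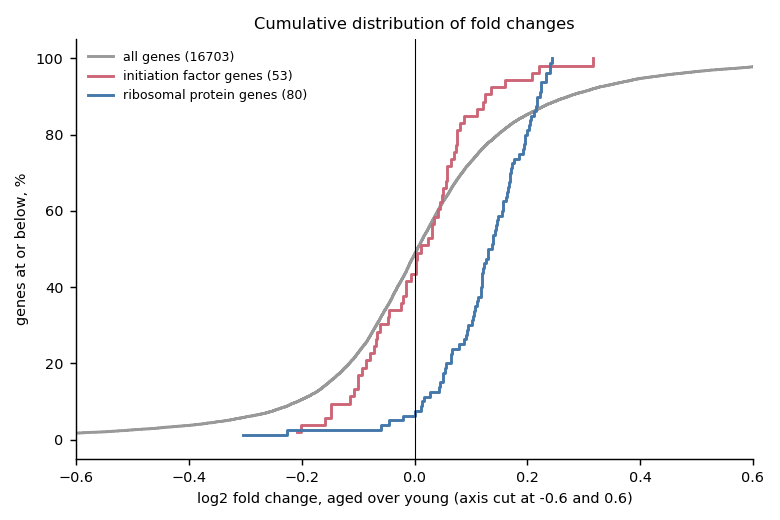
Cumulative percentage of genes at or below each log2 fold change in aged over young mice, for all 16703 genes, the 53 initiation factor genes and the 80 ribosomal protein genes. The curve of the initiation factor genes crosses 50% close to 0 (median 0.012), and that of the ribosomal protein genes lies to its right (median 0.134).

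Genes that work beside the initiation factors gave no call in any of 5 lists, where 1.98% of all genes were called. At that share, lists of this size may hold none. Over all genes, 14.5% were higher and 12.7% lower in every aged mouse. Of 13 genes of elongation, termination and recycling, 5 were higher (38.5%) and 4 lower (30.8%) in every aged mouse, with a median log2 fold change of 0.050. The farthest from 0 were Eef1b2, of the exchange factor that recharges the elongation factor eEF1A, at 110 ± 2.54 and 123 ± 1.69 CPM (SD, n = 3 each, log2 fold change 0.16, adjusted p = 0.12 from limma), the release factor gene Gspt2 (-0.15) and the eEF2 kinase gene Eef2k (0.12). Of 16 partners at the cap and the poly(A) tail, 1 was lower in every aged mouse and the median was -0.029. That gene was Ncbp1, of the nuclear cap-binding complex, at 63.5 ± 3.04 in young and 54.8 ± 1.42 CPM in aged mice (log2 fold change -0.21, adjusted p = 0.1 from limma). Pabpc4 (-0.13) and Cyfip1 (-0.06) followed.

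Of 11 genes of mTORC1 signalling, 1 was higher (9.09%) and 3 were lower (27.3%) in every aged mouse, with a median of -0.061. Deptor, an inhibitor of mTOR, had a log2 fold change of -0.26, the S6 kinase gene Rps6kb2 -0.25 and the inhibitor gene Tsc2 -0.13. None of them passed the FDR threshold (smallest adjusted p of the list 0.16). Of 24 measured targets of the integrated stress response, 2 were higher (8.33%) and 6 lower (25%) in every aged mouse, with a median of -0.018. The shares over all genes were 14.5% and 12.7%. The largest differences were those of Nupr1 (0.32), Atf3 (0.30) and Shmt2 (-0.28), and the smallest adjusted p of the list was 0.14. Nupr1 and Atf3 were at low levels (young means 3.92 and 0.827 CPM) and overlapped between the groups. Shmt2 was lower in every aged mouse. The mitochondrial initiation factor genes Mtif2 and Mtif3 had log2 fold changes of -0.07 and 0.08, with overlapping groups.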

How the data were processed

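Poly(A)-selected hippocampal RNA of 3 young and 3 aged male mice was sequenced with a directional kit. The authors deposited a log2 CPM value for each of 16703 genes and 6 libraries. STAR 2.7.8a, edgeR 3.32.1, R 4.05, Trim Galore 0.6.6 and the build mm39 stand in the submitters' processing notes; the methods name uniquely mapped reads and the removal of unwanted variation. The authors also deposited fold changes on the log2 scale, a test score and p-values, none of which was used. Turned back from log2, they gave whole numbers to within 5.9e-09, and 1 weighted sum of the libraries was constant to within rounding (0.9868 times the rounding spread over 1791 genes with a mean above 2000 adjusted counts), so they are counts from which 1 factor had been removed.

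Groups came from the sample labels. Aged and young log2 CPM were compared by limma 3.58.1 with a variance trend (R 4.3.3), the model holding age and the removed direction, over all genes, with Benjamini-Hochberg adjustment and an FDR of 0.05. The correlation of that direction with age was -0.02. The fit was tested on simulated data. Transcript lengths and exon overlaps came from GENCODE M21, a complete principal transcript being taken where there was 1 and otherwise the longest complete one, and starts from RefSeq GRCm38.p6; gene coordinates on mm39 are not given. Gene lists and role groups are written by hand, and the members and lists were chosen with earlier results of these data known. Values per library are given for Eif6, for genes called or without overlap between the groups, and for the highest and lowest fold change of each role; of each list, the called genes and up to 3 others of largest change are named. In the stress response list 5 tRNA synthetase genes were matched by their older symbols. Eif3j2, Eif4ebp3, Eif4e1b and Trib3 were not analysed here.

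Alternatives were age as the only term, the replicate number as a block, log2(CPM + 1), equal medians, a filter at 1 CPM, no variance trend, aged replicates 2 and 3 averaged, choroid plexus markers (Ttr, Folr1, Kl, Clic6 and Kcnj13) as a covariate, and each mouse left out. Python 3.11.15, scipy 1.17.1 and matplotlib 3.10.9 were used.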

Additional observations from a re-analysis of the deposited data

How the results depend on the processing

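The number of initiation factor genes called, 2 in the report, was 4 with age as the only term (Eif4g1, Eif3f, Eif3a and Eif1), 1 (Eif4g1) with aged replicates 2 and 3 averaged, and 0 with no variance trend or with the choroid plexus covariate. It was 0 to 1 when a mouse was left out. Over all genes, 200 higher and 131 lower in the report, the calls were 319 and 204 with age as the only term, 0 and 0 with no variance trend, 34 and 31 with the choroid plexus covariate, 143 and 100 with the averaged replicates, and 59 to 184 and 22 to 116 when a mouse was left out. The choroid plexus covariate was correlated with age at -0.8. Without aged replicate 3 the removed direction was correlated with age at -0.75. Eif4g1 and Eif3f remained called under log2(CPM + 1), equal medians, the 1 CPM filter and the replicate block, where 226 genes were higher and 163 lower. Deviations from the group means correlated at 0.109, -0.209 and -0.415 between young and aged mice of replicate numbers 1, 2 and 3. These correlations come from values with 1 factor removed, so they cannot tell whether the numbers pair the mice. The sign was kept under all 14 alternatives by 22 of the 27 genes given by library, including all 18 without overlap. Those 18 were picked for their separation in these same libraries, which makes a change of sign unlikely in most of these fits. Eif6, Eif2ak4, Eif2b1, Eif4a-ps4 and Eif5a2 changed sign in some. With no known depth, no counting error can be given, and 3 genes below 10 CPM have the widest intervals.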
